A study of Mus musculus with 8 samples.

Results

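Hepatic stellate cells are the pericytes of the liver sinusoid. In the quiescent state they store vitamin A as retinyl esters in lipid droplets, and after injury they turn into contractile, matrix-producing myofibroblasts. From the 19938 genes tested, 10 that mark these cells were followed in fasted mouse liver: Lrat and Reln as genes of the quiescent state, Acta2 and Tagln as contractile genes, and Des, Dcn, Ngfr, Pdgfrb, Colec11 and Hand2. They were given as a list of names with no threshold on a value, though with earlier results of these data known, and each had 1 probe set that names it alone.

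Whole liver of C57BL6 mice was hybridised to Affymetrix Mouse Gene 1.0 ST arrays, 1 array per sample, which read a transcript through several probes along its length. All 8 samples were of liver collected after a fast of 17 h. The hydrogen water group (4 arrays) had received hydrogen water over 4 weeks, starting at an age of 7 weeks, and the control group (4 arrays) is named as control in its titles and as fasted liver, without hydrogen water, in its source names. The treatment text of the labels names hydrogen water for all 8 samples, so the groups rest on the titles. The labels name no injury or fibrosis model and do not state that each array is a separate animal, so the p-values describe the variation among these arrays, which may be technical. Array medians lay between 5.27 and 5.37 (log2 signal), and arrays correlated at 0.988 to 0.995 over the genes tested. Control 3 was the highest of the 8 arrays in 19.8% of all genes and control 2 in 10.3%, while hydrogen water 3 or 4 was the lowest in 25.8%. In whole tissue, fewer stellate cells and less RNA per cell cannot be told apart.

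Contractile genes of smooth muscle and myofibroblasts are known to be driven by serum response factor (SRF) through CArG boxes, so the start of Acta2 is shown with the stretches that resemble this box. The Acta2 stretch covers the 250 bases before the RefSeq start (GRCm38.p6, chr19:34255374-34255623, minus strand). Capitals mark CArG boxes with at most 1 base off the pattern, and they begin 84 and 34 bases before that start.

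Acta2: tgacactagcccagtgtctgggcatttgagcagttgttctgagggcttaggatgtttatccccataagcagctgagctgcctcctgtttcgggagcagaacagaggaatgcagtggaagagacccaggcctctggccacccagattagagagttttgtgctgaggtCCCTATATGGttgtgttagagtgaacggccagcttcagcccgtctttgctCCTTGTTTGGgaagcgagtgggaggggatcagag

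Shorter windows with the same marking are given for Myl9, a myosin light chain whose values are set beside those of Acta2 further on, and for Lrat, the other member found to hold such a stretch among the 7 with a promoter in the table (Tagln, Dcn and Pdgfrb had no entry).
Myl9, first window: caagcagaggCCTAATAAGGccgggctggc
Myl9, second window: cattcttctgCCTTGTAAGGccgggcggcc
Lrat: cttctcaccgCCAAGAAAGGtgctccattc
Over both strands, a CArG box with at most 1 base off was held by 8.59% of 32851 RefSeq promoters of this length and a full CArG box by 1.47%. Of the 7 members with a promoter in the table, 2 held the looser form (Acta2 and Lrat) and 0 the full form. Among 15 other genes of the contractile apparatus in the table, 4 held the looser form, and 3 of them (Myl9, Cnn2 and Vcl) the full form. The TATA box TATAAA was in 0 of the 7 members and in 12.4% of all promoters, and the E box CANNTG in 7 of the 7 and in 66.2% of all. A match is a run of letters and was not tested as a binding site.

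The comparison of hydrogen water with control asked whether the quiescent or the contractile genes differed between the groups. None of the 10 members passed the test: by limma with Benjamini-Hochberg adjustment over all genes, 0 of 10 had an adjusted p under 0.05, against 0% of all genes. At an unadjusted p under 0.05 by limma there was 1 member, Des, against 7.17% of all genes (3.57% of all genes on the lower side and 3.6% on the higher side). The difference was below 0 in 7 of 10 members, with a median of −0.13, against 51.3% of all genes and a median of −0.00. The groups overlapped in every one of the 10 members, whereas they lay wholly apart in 3.76% of all genes (2.01% lower and 1.76% higher with hydrogen water).

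**Figure D1:**
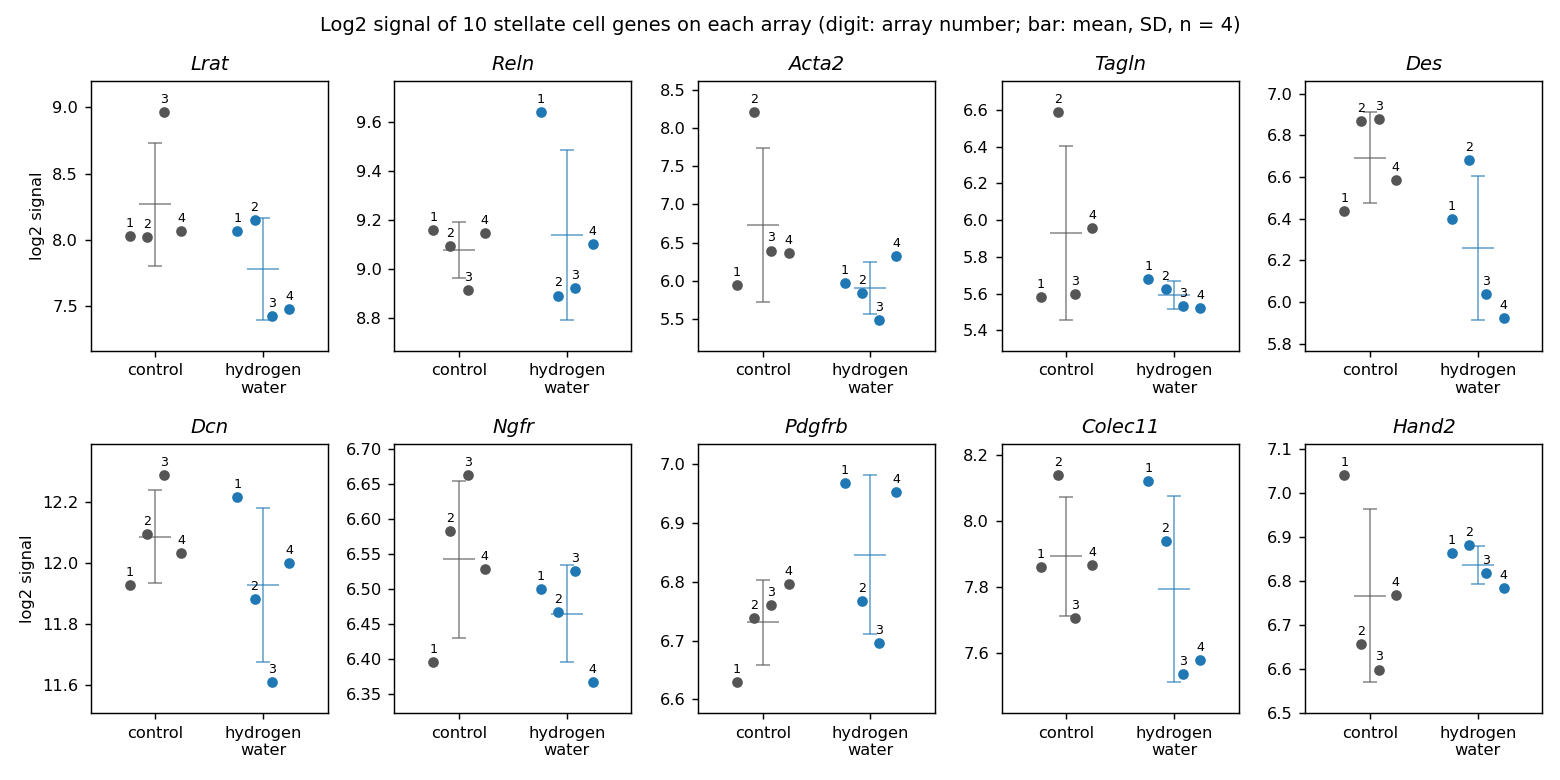
Log2 signal (y axis, a separate scale in each panel) of the 10 genes on control and hydrogen water arrays. Each point is 1 array with its number, and bars are the mean and SD (n = 4). Acta2 and Tagln are highest on control 2, Lrat is highest on control 3, and Lrat, Des and Colec11 are lowest on hydrogen water 3 and 4.

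Lrat (transcript cluster 10498978) encodes lecithin retinol acyltransferase, the enzyme that esterifies retinol for storage. Its log2 signal was 8.03, 8.02, 8.96 and 8.06 on controls 1 to 4 and 8.06, 8.15, 7.42 and 7.48 on hydrogen water 1 to 4. Control 3 stood alone at the top and hydrogen water 3 and 4 at the bottom, while the other 5 arrays lay within the narrow span from 8.02 to 8.15. The means were 8.27 ± 0.46 (SD, n = 4) in controls and 7.78 ± 0.38 (SD, n = 4) with hydrogen water. The difference was −0.49 (SE 0.23, 95% interval −0.99 to 0.01), a ratio of 0.71, with a limma adjusted p of 0.703. Without control 3 the difference was −0.26 (limma adjusted p = 0.72).

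Reln (transcript cluster 10528385) encodes reelin, a large secreted glycoprotein that stellate cells make in the liver. Its log2 signal was 9.16, 9.09, 8.91 and 9.15 on the controls and 9.64, 8.89, 8.92 and 9.10 with hydrogen water. Hydrogen water 1 was the highest array, and the other 7 arrays overlapped between the groups. The difference was 0.06 (SE 0.16, 95% interval −0.28 to 0.40; limma adjusted p = 0.96), and it was −0.11 without hydrogen water 1. The 2 genes of the quiescent state thus had different arrays at their extremes, and across the 8 arrays their Pearson correlation was −0.09 (exact permutation p = 0.82).

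Acta2 (transcript cluster 10467124) encodes smooth muscle alpha-actin, which is present in vascular smooth muscle and in activated stellate cells. Its log2 signal was 5.94, 8.21, 6.40 and 6.36 on controls 1 to 4 and 5.97, 5.84, 5.49 and 6.32 on hydrogen water 1 to 4. Control 2 stood far above the other 7 arrays, which ranged from 5.49 to 6.40 with the groups overlapping. The means were 6.73 ± 1.01 (SD, n = 4) in controls and 5.91 ± 0.34 (SD, n = 4) with hydrogen water, and they differed by −0.82 (SE 0.39, 95% interval −1.67 to 0.03; limma adjusted p = 0.704). Without control 2 the difference was −0.33 (SE 0.19; limma adjusted p = 0.897).

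Tagln (transcript cluster 10593123) encodes transgelin, an actin-binding protein of smooth muscle. Its log2 signal was 5.58, 6.59, 5.59 and 5.96 on the controls and 5.68, 5.63, 5.53 and 5.52 with hydrogen water. Control 2 was again the highest array, and control 4 was next; the 4 hydrogen water arrays lay close together (5.59 ± 0.08, SD, n = 4), and the controls were spread more widely (5.93 ± 0.47, SD, n = 4). The difference was −0.34 (SE 0.19, 95% interval −0.76 to 0.08; limma adjusted p = 0.753), and without control 2 it was −0.12 (limma adjusted p = 0.944).

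**Figure D2:**
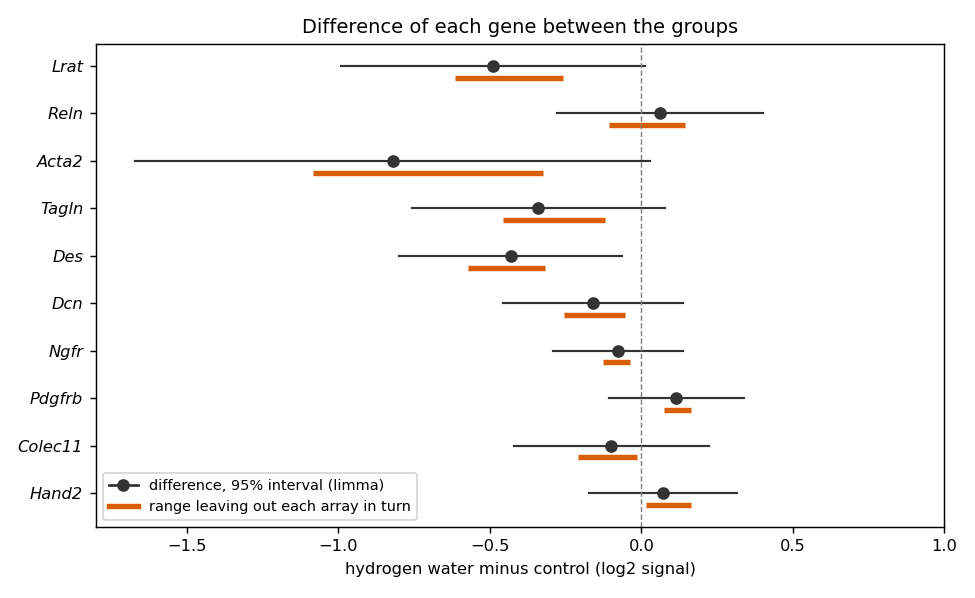
Difference between hydrogen water and control (x axis, log2 signal) for the 10 genes; points and thin lines are the limma difference and its 95% interval, and thick bars are the range when each of the 8 arrays is left out in turn. Only the interval of Des lies wholly below 0; the bars of Acta2 and Tagln reach up to −0.33 and −0.12 when control 2 is left out.

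To set the quiescent genes against the contractile ones on each array, every gene was centred on its mean over the 8 arrays. The mean of Acta2 and Tagln was then subtracted from the mean of Lrat and Reln. This contrast was 0.31, −1.37, 0.41 and −0.08 on controls 1 to 4 and 0.50, 0.26, 0.13 and −0.16 on hydrogen water 1 to 4. Control 2 was the lowest array by far, and the other controls spanned a range close to that of the hydrogen water arrays. The group means were −0.18 ± 0.82 (SD, n = 4) and 0.18 ± 0.27 (SD, n = 4), which lie 0.37 apart; this is given as a description with no test. Without control 2 that difference was −0.03, so its sign rested on that array.

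**Figure D3:**
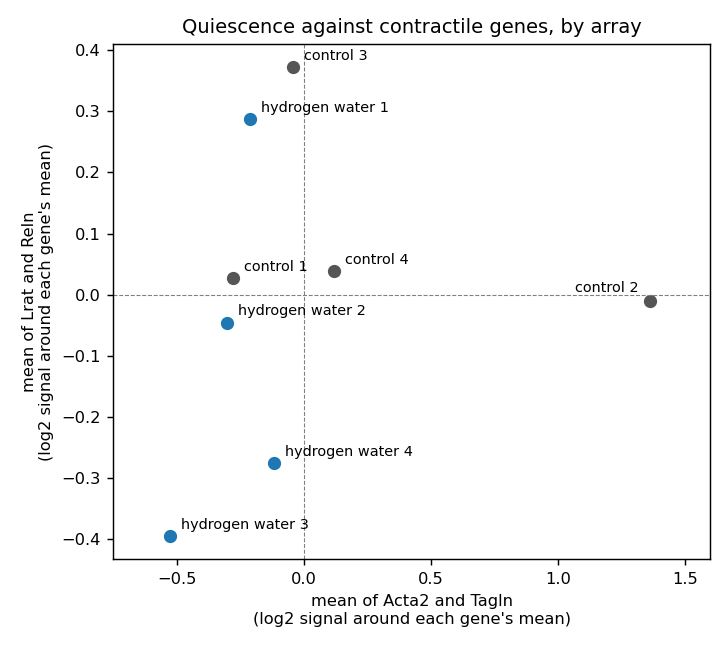
Mean of Lrat and Reln (y axis) against the mean of Acta2 and Tagln (x axis) on each of the 8 arrays, both as log2 signal around each gene's mean over the arrays. Control 2 lies alone at 1.36 on the contractile axis and near 0 on the quiescence axis; hydrogen water 3 is lowest on both axes, at −0.53 and −0.39.

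The 6 pairs among these 4 genes were compared across the 8 arrays. Acta2 and Tagln had a Pearson r of 0.91 (exact permutation p = 0.0267, adjusted over the 6 pairs 0.16) and a Spearman rho of 0.52 (exact permutation p = 0.197, adjusted 0.882). Their r was 0.88 for deviations from the group means, but it was 0.39 without control 2 and 0.24 without control 2 and hydrogen water 3, the 2 arrays farthest from the Acta2 median, so the relation rested on control 2. For the other 5 pairs r lay between −0.09 and 0.18 and rho between −0.19 and 0.38 (lowest exact permutation p 0.56 for r and 0.36 for rho, all adjusted p at least 0.882). Without the 2 arrays farthest from the median of the first gene, r of these 5 pairs lay between −0.04 and 0.32.

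Des (transcript cluster 10347583) encodes desmin, the intermediate filament protein of muscle that also marks stellate cells in rodents. Its log2 signal was 6.44, 6.87, 6.88 and 6.59 on the controls and 6.40, 6.68, 6.04 and 5.92 with hydrogen water. Hydrogen water 1, 3 and 4 were lower than every control, the first of them only slightly, whereas hydrogen water 2 lay above controls 1 and 4. The means were 6.69 ± 0.22 (SD, n = 4) and 6.26 ± 0.35 (SD, n = 4), and hydrogen water differed from control by −0.43 (SE 0.17, 95% interval −0.80 to −0.06). By limma the unadjusted p was 0.0255 and the adjusted p 0.687, and a two-sided exact permutation test of this gene gave p = 0.114, where the smallest p the design allows is 0.0286. Leaving out any 1 array kept the difference between −0.57 and −0.32, and the unadjusted limma p was 0.069 without control 2, 0.0646 without control 3, 0.0775 without hydrogen water 3 and 0.0829 without hydrogen water 4.

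Des resembled Lrat more closely than it resembled the contractile genes: across the 8 arrays its Pearson r, as a description, was 0.83 with Lrat, 0.53 with Acta2 and 0.56 with Tagln. Dcn, which encodes decorin, a matrix proteoglycan that binds collagen and TGF-beta, had an r of 0.72 with Lrat. Its log2 signal ranged from 11.93 to 12.29 on controls and from 11.61 to 12.22 with hydrogen water, a difference of −0.16 (95% interval −0.46 to 0.14; limma adjusted p = 0.858). It was −0.05 without hydrogen water 3, −0.09 without control 3 and −0.26 without hydrogen water 1. Control 3 was the highest array for Lrat, Des, Dcn and Ngfr, that is 4 of 10 members against 19.8% of all genes. Hydrogen water 3 or 4 was the lowest array for 7 of 10 members against 25.8% of all genes.

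Of the surface receptors, Pdgfrb, the receptor through which platelet-derived growth factor drives stellate cells to divide, ranged from 6.63 to 6.80 on controls and from 6.70 to 6.97 with hydrogen water. Its difference was 0.12 (95% interval −0.11 to 0.34; limma adjusted p = 0.867), and it was 0.07 without hydrogen water 1. Ngfr, the p75 neurotrophin receptor, varied least of all 10 members, with all 8 arrays between 6.37 and 6.66 and a difference of −0.08 (95% interval −0.29 to 0.14; limma adjusted p = 0.912), and it was −0.04 without control 3, −0.05 without hydrogen water 4 and −0.13 without control 1. For these receptors the intervals reached no further than 0.34 from 0 on the log2 scale.

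Colec11, a soluble collectin that binds sugars on microbes, was at 8.14 on control 2 and 8.12 on hydrogen water 1 and at 7.54 and 7.58 on hydrogen water 3 and 4. Its difference was −0.10 (95% interval −0.42 to 0.22; limma adjusted p = 0.925). It was −0.01 without hydrogen water 3, −0.02 without control 2, −0.03 without hydrogen water 4, −0.16 without control 3 and −0.21 without hydrogen water 1. Hand2, a basic helix-loop-helix transcription factor of mesenchymal lineages, lay between 6.79 and 6.88 on all hydrogen water arrays, inside the control range of 6.60 to 7.04. Its difference was 0.07 (95% interval −0.17 to 0.32; limma adjusted p = 0.931), and it was 0.01 without control 3, 0.03 without control 2 and 0.16 without control 1. Hand2 ran against several of the other members, with an r of −0.77 with Ngfr and −0.58 with Acta2 over the 8 arrays, given as a description.

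The contractile apparatus beyond the members was read on 17 genes, of which 0 passed the adjusted threshold by limma and 0 had an unadjusted p under 0.05; 11 were lower and 6 higher, with a median difference of −0.04 against −0.00 over all genes. Flna, an actin crosslinker, differed by −0.24 (SE 0.12), the calponin Cnn1 by −0.46 (SE 0.24) and the myosin light chain kinase Mylk by 0.24 (SE 0.18). The calponin value again came with control 2: Cnn1 was 6.12 there, against 4.72 to 5.13 on controls 1, 3 and 4 and 4.52 to 4.93 in the hydrogen water group. Control 2 was the highest array for 6 of the 17 genes (Cnn1, Myl9, Myh11, Actg2, Tpm1 and Flna), against 10.3% of all genes.

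These genes are named because of their place on control 2, hence after their values were seen. Myl9 was 5.94 on control 2 and 4.98 to 5.41 on the other 7 arrays. Myh11, the heavy chain of smooth muscle myosin, was 6.19 there and 5.39 to 5.81 elsewhere. Actg2, the gamma-actin of smooth muscle, was 5.50 there and 4.70 to 5.07 elsewhere. Pln, which encodes phospholamban and is also a smooth muscle marker, had its lowest value on that array (3.76).

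**Figure D4:**
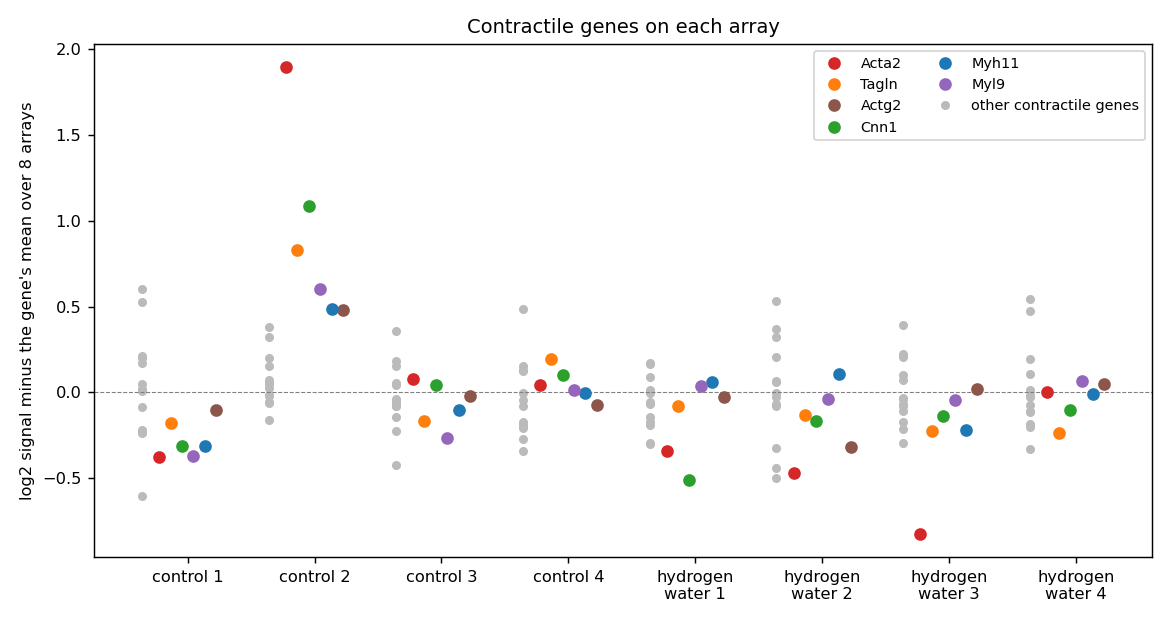
Log2 signal around each gene's mean (y axis) on each of the 8 arrays for Acta2, Tagln and the 17 other contractile genes; points are genes, with 6 of them in colour, chosen after their values were seen. On control 2 Acta2 is at 1.90 and Tagln at 0.83, and the 6 coloured genes all have their highest point there.

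Markers of other cells that a piece of liver can hold were read beside the contractile genes. Over 9 vascular smooth muscle markers the mean log2 signal around each gene's mean was 0.20 on control 2, against −0.10 to −0.00 on controls 1, 3 and 4 and −0.07 to 0.05 in the hydrogen water group. Of these 9, Cnn1, Myh11 and Actg2 are the genes just named for their place on control 2, so that mean is not separate from them. These 3 averaged 0.68 on control 2, whereas the other 6 averaged −0.04 there and −0.09 to 0.14 on the other 7 arrays, in a split made after the values were seen. Cholangiocyte markers (5 of 6 measured) were at 0.39 on control 2 and at −0.26 to 0.17 elsewhere, with the keratin Krt19 at 6.78 against 5.11 to 5.84. Of these 5 markers, 3 were highest on control 2, whereas Sox9 had its lowest value there (7.01). Mesothelial markers (6 genes) were at 0.65 on control 2 but also at 0.67 on hydrogen water 2, where Acta2 was 5.84. Markers of sinusoidal endothelium (9 genes) were lowest on control 2, at −0.46. The part of these cells in the Acta2 and Tagln values was not tested.

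Beside Lrat and Des, which were lowest on hydrogen water 3 and 4, the other cell markers stood as follows. Kupffer cell markers (10 genes) were at 0.20 and 0.65 on hydrogen water 3 and 4 and at −0.44 to 0.17 on controls. On hydrogen water 1 and 2 they were at −0.12 and 0.14. Lymphatic endothelial markers (4 of 5 measured) were at 0.16 and 0.18 on hydrogen water 3 and 4 and at −0.17 to −0.04 on controls. On hydrogen water 1 and 2 they were at −0.03 and 0.10. On hydrogen water 3 and 4 Prox1 was at 10.80 and 10.73 (controls 9.74 to 10.10) and Flt4 at 7.46 and 7.23 (controls 6.39 to 7.17). Pdpn was at 6.21 and 5.70 there (controls 5.45 to 6.11). Mmrn1 was lowest on hydrogen water 3 (3.41) and at 4.30 on hydrogen water 4 (controls 3.66 to 4.64). In whole liver the cell that gave the Prox1 signal cannot be told apart, so the mean of this list may not come from lymphatic cells alone. Markers of portal fibroblasts (8 genes), nerve and Schwann cells (3 of 6 measured) and hepatocytes (8 genes) spanned −0.10 to 0.20, −0.16 to 0.08 and −0.03 to 0.06 over all arrays. On hydrogen water 3 and 4 sinusoidal endothelial markers were at 0.24 and 0.09 and cholangiocyte markers at −0.26 and 0.04. Mesothelial markers were at 0.18 and −0.44 there, and vascular smooth muscle markers at −0.04 and −0.07. The part of these cells in the Lrat and Des values was not tested.

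**Figure D5:**
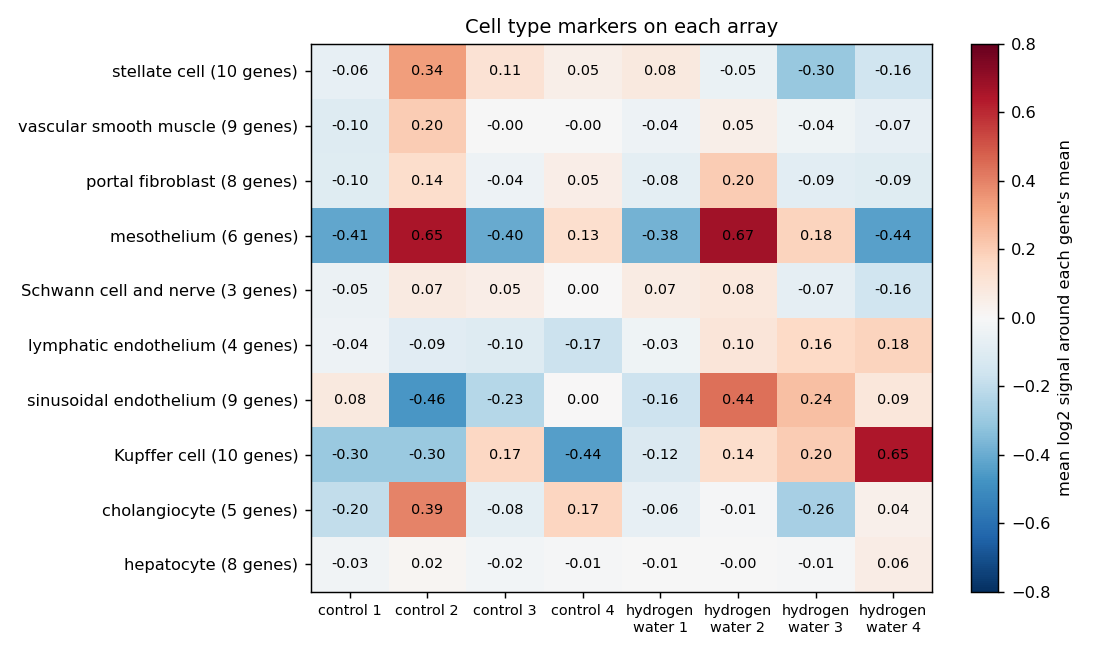
Mean log2 signal around each gene's mean for 10 marker lists (rows, with the number of genes measured) on each of the 8 arrays (columns); colour and printed value show the same quantity. The stellate cell row runs from −0.30 on hydrogen water 3 to 0.34 on control 2, where the mesothelial, cholangiocyte and smooth muscle rows are also high, the last through Cnn1, Myh11 and Actg2. In the stellate cell row 3 of the 10 genes are highest on control 2. Acta2 is at 1.90 and Tagln at 0.83 there, whereas Lrat and Reln are each at −0.01.

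Further genes of quiescent stellate cells were read on 17 of 18 listed genes. Of these, 8 were higher and 9 lower, and the median difference was −0.00. By limma 0 passed the adjusted threshold and 1 had an unadjusted p under 0.05, against 7.17% of all genes. Angptl6, an angiopoietin-like secreted protein, was 7.91 to 8.12 on controls and 8.03, 7.74, 7.44 and 7.31 on hydrogen water 1 to 4, a difference of −0.40 (SE 0.15; limma adjusted p = 0.656). It had its lowest values on the same arrays as Lrat and Des. Ecm1, an extracellular matrix protein, differed by 0.29 (SE 0.15) and Abcc9, a subunit of potassium channels in pericytes, by 0.23 (SE 0.13), in the opposite direction. Over the 17 genes the per-array mean was highest on hydrogen water 1 (0.20) and lowest on hydrogen water 3 (−0.17), so the hydrogen water arrays held both extremes.

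Genes that handle retinoids, the cargo that Lrat stores, were read on 19 genes. Of these, 12 were higher and 7 lower, and by limma 0 passed the adjusted threshold. In each direction 1 had an unadjusted p under 0.05 by limma, against 3.6% (higher) and 3.57% (lower) of all genes. Cyp26a1, the cytochrome P450 that degrades retinoic acid, was 7.57, 6.70, 6.61 and 7.08 on the controls and 6.04, 6.29, 6.30 and 6.29 with hydrogen water. Every hydrogen water array was below every control, as for 2.01% of all genes, and the difference was −0.76 (SE 0.18, limma unadjusted p = 0.00141, adjusted p = 0.617). Pnpla2, a lipase that releases fatty acids from stored triglyceride and also acts on retinyl esters, lay at 10.41 to 11.06 on controls and 11.15 to 11.49 with hydrogen water, a difference of 0.43 (SE 0.15; limma adjusted p = 0.64). The retinoic acid receptor Rarb differed by 0.28 (SE 0.19). Both Cyp26a1 and Pnpla2 are also active in hepatocytes, and the cell that gave these signals cannot be told apart here.

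Among genes of TGF-beta signalling, the pathway that activates stellate cells, 17 of 18 were measured; 10 were higher and 7 lower, with a median of 0.08, and by limma 0 passed the adjusted threshold and 3 had an unadjusted p under 0.05, all higher, against 3.6% of all genes on the higher side. Eng, the coreceptor endoglin, was 8.24 to 8.81 on controls and 8.94 to 9.16 with hydrogen water, a difference of 0.42 (SE 0.13; limma adjusted p = 0.638). Ccn2, a matricellular protein induced by TGF-beta, differed by 0.45 (SE 0.18), and Tgfbr3, betaglycan, by 0.25 (SE 0.11). Eng is a known endothelial gene, and the sinusoidal endothelial marker mean was −0.15 ± 0.24 (SD, n = 4) in controls and 0.15 ± 0.25 (SD, n = 4) with hydrogen water; its part in the Eng value was not tested.

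The matrix list of activated stellate cells (15 of 18 measured) had 9 genes higher and 6 lower, a median of 0.02, and by limma 0 genes past the adjusted threshold and 0 at an unadjusted p under 0.05. Timp1, an inhibitor of matrix metalloproteinases, differed by −0.24 (SE 0.11), the periostin gene Postn by −0.25 (SE 0.15) and the collagen gene Col6a3 by 0.11 (SE 0.11). Timp1 had all 4 hydrogen water values (3.97 to 4.10) below all controls (4.11 to 4.47), as did 2.01% of all genes, at a low signal. Small leucine-rich proteoglycans, the family of Dcn, were read on 9 genes with 5 higher and 4 lower. Prelp differed by 0.38 (SE 0.14), Aspn by −0.31 (SE 0.14) and Omd by −0.52 (SE 0.27), and 0 passed limma's adjusted threshold. In each direction 1 had an unadjusted p under 0.05 by limma, against 3.6% (higher) and 3.57% (lower) of all genes.

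Of 5 PDGF ligands and receptors beside Pdgfrb, 2 were higher and 3 lower. Pdgfc, a ligand of the PDGF receptors, was 7.38, 7.15, 7.39 and 7.03 on the controls and 6.93, 6.91, 6.58 and 6.90 with hydrogen water. Its groups did not overlap, as in 2.01% of all genes on the lower side, and the difference was −0.41 (SE 0.12, limma adjusted p = 0.636). Pdgfa and Pdgfra differed by −0.30 (SE 0.19) and 0.09 (SE 0.16). Of the neurotrophin group around Ngfr (5 of 8 measured, 2 higher and 3 lower), the sorting receptor Sort1 differed by −0.55 (SE 0.19; limma adjusted p = 0.64), the neurotrophin Bdnf by −0.14 (SE 0.11) and the receptor Ntrk2 by −0.10 (SE 0.11). Around Reln (4 genes, 2 higher and 2 lower), the endocytic adaptor Dab2 differed by 0.39 (SE 0.13; limma adjusted p = 0.64), the reelin receptor Vldlr by −0.13 (SE 0.16) and the adaptor Dab1 by 0.03 (SE 0.10). By limma 0 genes of these 3 groups passed the adjusted threshold. In each group 1 gene (Pdgfc, Sort1 and Dab2) had an unadjusted p under 0.05 by limma, against 7.17% of all genes.

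Collectins and MASP proteases, the genes listed around Colec11, were 3 higher and 5 lower of 8. Colec12, a membrane scavenger collectin, was 9.22 to 9.34 on controls and 8.67 to 9.14 with hydrogen water. The groups again did not overlap, as in 2.01% of all genes on the lower side. Colec12 differed by −0.34 (SE 0.12, limma adjusted p = 0.64). Mbl1, a mannose-binding lectin, and the protease Masp1 differed by −0.24 (SE 0.11) and −0.25 (SE 0.12). Of 14 mesenchymal and smooth muscle transcription factors (5 higher, 9 lower), Foxf1, a forkhead factor of stellate cells, differed by −0.50 (SE 0.17; limma adjusted p = 0.638), Nkx3-2 by −0.20 (SE 0.12) and Mrtfb, a coactivator of SRF, by 0.17 (SE 0.16). Foxf1 was highest on control 3 (8.10) and lowest on hydrogen water 3 and 4 (7.00 and 6.90), as Lrat was. Of the 8 collectin and MASP genes 1 (Colec12), and of the 14 factors 1 (Foxf1), had an unadjusted p under 0.05 by limma, against 7.17% of all genes. By limma 0 genes of either list passed the adjusted threshold.

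Over the 11 lists together, 130 of 138 genes were measured; 64 were higher and 66 lower with hydrogen water, and by limma 0 passed the adjusted threshold. At an unadjusted p under 0.05 there were 13, 6 higher and 7 lower, against 7.17% of all genes. The groups lay wholly apart in 6 of the 130, against 3.76% of all genes.

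The genes above the median signal whose pattern over the 8 arrays was most like that of Lrat were Sdhaf3 (r = 0.98), Ntan1 (0.98), Ugt2b1 (0.98), Psmb3 (0.96) and Ccdc90b (0.96). Sdhaf3 encodes a mitochondrial assembly factor and Psmb3 a proteasome subunit, and both were highest on control 3 and lowest on hydrogen water 3 and 4. For Acta2 they were Rab28 (r = 0.94), Adgrb2 (0.93), Cyp7b1 (0.91), Ippk (0.90) and Ppp1r3b (0.90), all highest on control 2. Without control 2 the r with Acta2 was 0.88 for Adgrb2, 0.81 for Rab28, 0.67 for Ippk and 0.52 for Ppp1r3b. It was also 0.52 for Cyp7b1, an oxysterol hydroxylase of hepatocytes. Without control 3 the r with Lrat ran from 0.93 for Ccdc90b and Psmb3 to 0.96 for Sdhaf3. The genes named here are the highest of 9698 candidates over 8 arrays, and their r values are descriptions. Across the 19937 other genes, 104 (0.52%) had an r of at least 0.9 with Lrat, 77 (0.39%) with Des and 48 (0.24%) with Ngfr. There were 35 with Tagln, 33 with Acta2, 30 with Colec11 and 24 with Dcn. The fewest were 16 with Pdgfrb, 11 with Reln and 9 (0.045%) with Hand2. The count for a typical gene was not worked out.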

How the data were processed

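The log2 signals come from 1 table that the authors deposited, with a row for each probe set and a column for each array. Per the submitters' processing notes the program was Expression Console; its version, the summary method and the build were not given in the sources used here. The log2 scale was read from the values. Groups and array numbers came from sample titles, because the treatment text is the same for all 8 samples. Of 35556 probe sets, 21789 named 1 gene; symbols were updated through RefSeq (GRCm38.p6, names only). The brightest probe set stood for each of 19938 genes. Hydrogen water was compared with control in limma 3.58.1 under R 4.3.3 (two-sided moderated test, no covariate, Benjamini-Hochberg over all genes, threshold 0.05), after the function was tested on simulated data. Precision rests on 4 arrays per group; arrays have no read depth. Probe set signals were not compared between genes.

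The 10 members, the 11 gene lists and the 10 marker lists were chosen with earlier results of these data known. Named genes were every member, the 3 genes of each list with the smallest unadjusted p, the 5 genes most like Lrat and like Acta2, and others where stated. Listed genes without a probe set of their own are not analysed here. Motifs were searched in RefSeq promoters (GRCm38.p6). The values were recomputed without dim probe sets, with other choices of probe set, after quantile normalization or median centring, with a trended robust variance, with weights per array, with a block for the replicate number, without each array in turn, and by an exact permutation test. Same-numbered arrays did not deviate together (r of −0.16 to 0.06), so the numbers were not taken as pairs.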

Additional observations from a re-analysis of the deposited data

Results flagged for a closer look

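One array stood far from the other 3 of its group in 4 of the 44 groups of 4 values examined (10 members and 12 list means, in each of the groups); chance flags about 1 in 20. Lrat was 8.96 on control 3, where the gap to the next control was 0.951 of the control range. The mean of 17 contractile genes was 0.21 on control 2, with a gap of 0.973 of the range. The mean of the portal fibroblast markers was 0.20 on hydrogen water 2 (0.943 of the range), and that of the hepatocyte markers was 0.0563 on hydrogen water 4 (0.926 of the range). Acta2 on control 2 came close, at 8.21 with a gap of 0.799 of the control range, which did not reach Dixon's critical value for groups of this size.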

How the results depend on the processing

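Every alternative left 0 members and 0 list genes past limma's adjusted threshold; over all genes 0 to 1 passed when each array was left out (Sucnr1 without control 2, Aqp8 without control 3). The direction of 9 members held in every setting; that of Reln was −0.11 without hydrogen water 1 (range −0.11 to 0.14 over arrays left out). Members at an unadjusted p under 0.05, 1 as reported, were 2 with quantile normalization, 3 with each array centred on its median, 3 with array weights and 2 with the replicate block (Acta2 and Des, adjusted p = 0.735 and 0.679 by limma), and 0 to 4 when each array was left out; the cause was not tested. Centring on the median moved the median of all genes to −0.04. The contrast of quiescence against contractile genes ranged from −0.03 to 0.56 when each array was left out.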
